A study of Mus musculus with 20 samples.

Results

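Transcripts of the DNA replication machinery were examined in RNA immunoprecipitation sequencing (RIP-Seq) of Tet proteins from mouse embryonic stem cells (ESCs). The set is a list of 44 genes chosen by function, but with earlier results of these data known. It holds 7 MCM genes, 8 genes of origin recognition and licensing, 2 genes of the Cdc7 kinase, 4 GINS subunits and 4 genes of polymerase alpha-primase. The others are 6 genes of polymerases delta and epsilon, 6 genes of the clamp and clamp loader, 2 genes of Okazaki fragment processing, 3 RPA subunits and 2 subunits of ribonucleotide reductase. All 44 were among the 23284 genes of the deposited files, and all 44 passed the filter on low counts, as did 13710 genes in all.

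The 20 libraries came from 3 ESC lines in which the endogenous gene had been given a C-terminal Flag, HA and Twin-Strep tag by CRISPR-Cas9 nickase knock-in. The Tet1-KI line (tagged Tet1) had 2 IP and 2 input libraries, the Tet2-KI line (tagged Tet2) had 4 and 4, and the Tet2dRBD-KI line (tagged Tet2 without its RNA-binding domain) had 4 and 4. The IP was made with anti-Flag antibody from cytoplasmic extract, the input is total RNA, and each line was derived from picked clones of cells grown on gelatin with serum and leukemia inhibitory factor. Libraries of control IgG or of untagged cells were not analysed here. The study states that RIP-Seq was done at least in biological duplicate, without saying which replicates were separate cultures. Nothing in the labels says so either, so the p-values measure the spread between these libraries. In what follows each IP is set against the input of the same replicate number.

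DNA replication starts at origins marked by the origin recognition complex, where Cdc6 and Cdt1 load the MCM helicase before S phase. The Cdc7 kinase with its activator Dbf4 then phosphorylates MCM, GINS joins it in the active helicase, polymerase alpha-primase lays down primers, and polymerases delta and epsilon extend them while held on DNA by the Pcna ring that replication factor C loads. ESCs spend much of a short cell cycle in S phase, and these genes are typically well expressed in them.

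The study describes a UC-rich motif at sites of 5-hydroxymethylcytosine in RNA, which it found mostly in introns. Here the longest uninterrupted run of C and T in the coding sequence was read for each member as a description of its transcript. Such a run lies in another region than most of those sites and is not a reading of them. The runs are shown for the members called in more than 1 line, which are described below. Each window has at most 30 bases of coding sequence of the transcript strand, from the GENCODE annotation of mm9, and the capitals mark the run.
Dbf4: gtcaacgTTTTTTTCTTCCCCTTCaacttc
Mcm6: tctgcacgagCCTCTTCCCTactatacatg
Mcm10: gcctaaccaCTCCTCTTCTTCgagatcaag
Rpa3: agcttcctcagTTTTTCCCTgtagggcttc
Rrm2: gtagaaggaaTCTTCTTTTCCggttctttt
Gins2: cagcagcggggCCTTCCTCacccaggccct
Rfc5: ctgccacacctaCTTCTCTatggccctcca
The window of Dbf4 lies at chr5:8397236-8397265 in exon 12 on the minus strand, and its run of 17 bases is the longest among the 44 members. The other windows lie at chr1:130244946-130244975 (Mcm6, exon 7, minus strand), chr2:4927534-4927563 (Mcm10, exon 6, minus), chr6:8206179-8206208 (Rpa3, exon 4, minus), chr12:25396560-25396589 (Rrm2, exon 7, plus), chr8:123105653-123105682 (Gins2, exon 5, minus) and chr5:117836812-117836841 (Rfc5, exon 3, minus). A coding run of 10 or more C or T was found in 25 of the 44 members (56.8%) and in 8368 of 13109 tested genes with a coding sequence (63.8%). A run of 17 or more was found in 1 member (2.27%) and in 554 genes (4.23%), so a run as long as that of Dbf4 was not rare among the genes tested.

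The members were abundant in input. Their median input level over the 10 input libraries was 51.6 TPM (a level scaled by transcript length and library total), against 9.21 TPM over all genes tested, and 40 of 44 lay above that median of all genes. The highest levels were those of Pcna at 387 ± 109 TPM (SD, n = 10), Rrm2 at 261 ± 49.3 TPM and Mcm7 at 254 ± 120 TPM. The SDs of Rrm2 and Mcm7 cover the difference between them. The lowest were Pola1, the catalytic subunit of polymerase alpha, at 7.60 ± 2.41 TPM, Orc4 at 7.13 ± 3.42 TPM and Orc3 at 5.84 ± 2.49 TPM, which also overlapped within their spread. Dbf4 varied most between inputs, with a coefficient of variation of 68.9%, and Rfc3, a subunit of the clamp loader, varied least, with 14.2%.

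Input levels did not separate the line with the deletion from the line without it in the test made. In the comparison of the 4 Tet2dRBD inputs with the 4 Tet2 inputs, 0 of 44 members passed an adjusted p of 0.05 in edgeR and 0 were below an unadjusted p of 0.05, against 0 of 13178 genes (0%) and 248 genes. DESeq2 also called 0 members, with 9 genes called. With the replicate number as a block, since the same numbers share a library set in both lines, 0 members and 5 genes were called. Then 5 members were below an unadjusted p of 0.05, all higher in Tet2dRBD: Mcm2 (log2 difference 0.40), Mcm5 (0.25), Mcm7 (0.22), Pola2 (0.22) and Fen1 (0.20), with edgeR adjusted p from 0.15 to 0.37. In the main comparison, without that block, the fitted log2 differences of the members lay between -0.18 for Rpa3 and 0.58 for Dbf4, with a median of 0.10 against 0.04 over all genes.

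Libraries of the same line differed between replicates by more than sampling alone allows in every pair, and least between replicates 3 and 4 of Tet2 and between the IPs of replicates 3 and 4 of Tet2dRBD. A mean chi-square per gene of 1 is expected from counting alone. It was 133 or more between every other pair of Tet2 or Tet2dRBD replicates of one kind, between 2.7 and 3.5 for those 3 pairs, 16.2 for the Tet2dRBD inputs 3 and 4, and 7.54 and 7.66 between the Tet1 replicates. The numbers in the deposited names put replicate 1, replicate 2 and replicates 3 and 4 of these lines in 3 library sets, the last of which also holds Tet1, so replicates 3 and 4 may share a preparation. The libraries expressed the ESC markers (8 of 8 at 1 TPM or more on average in input, summed at 13540 to 17340 TPM). Summed markers of feeder fibroblasts reached 63.2 TPM, of primitive endoderm 93.9 TPM and of neural cells 142 TPM, while those of mesoderm and trophoblast stayed at or below 5.46 TPM, and their part in the results was not tested.

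**Figure D1:**
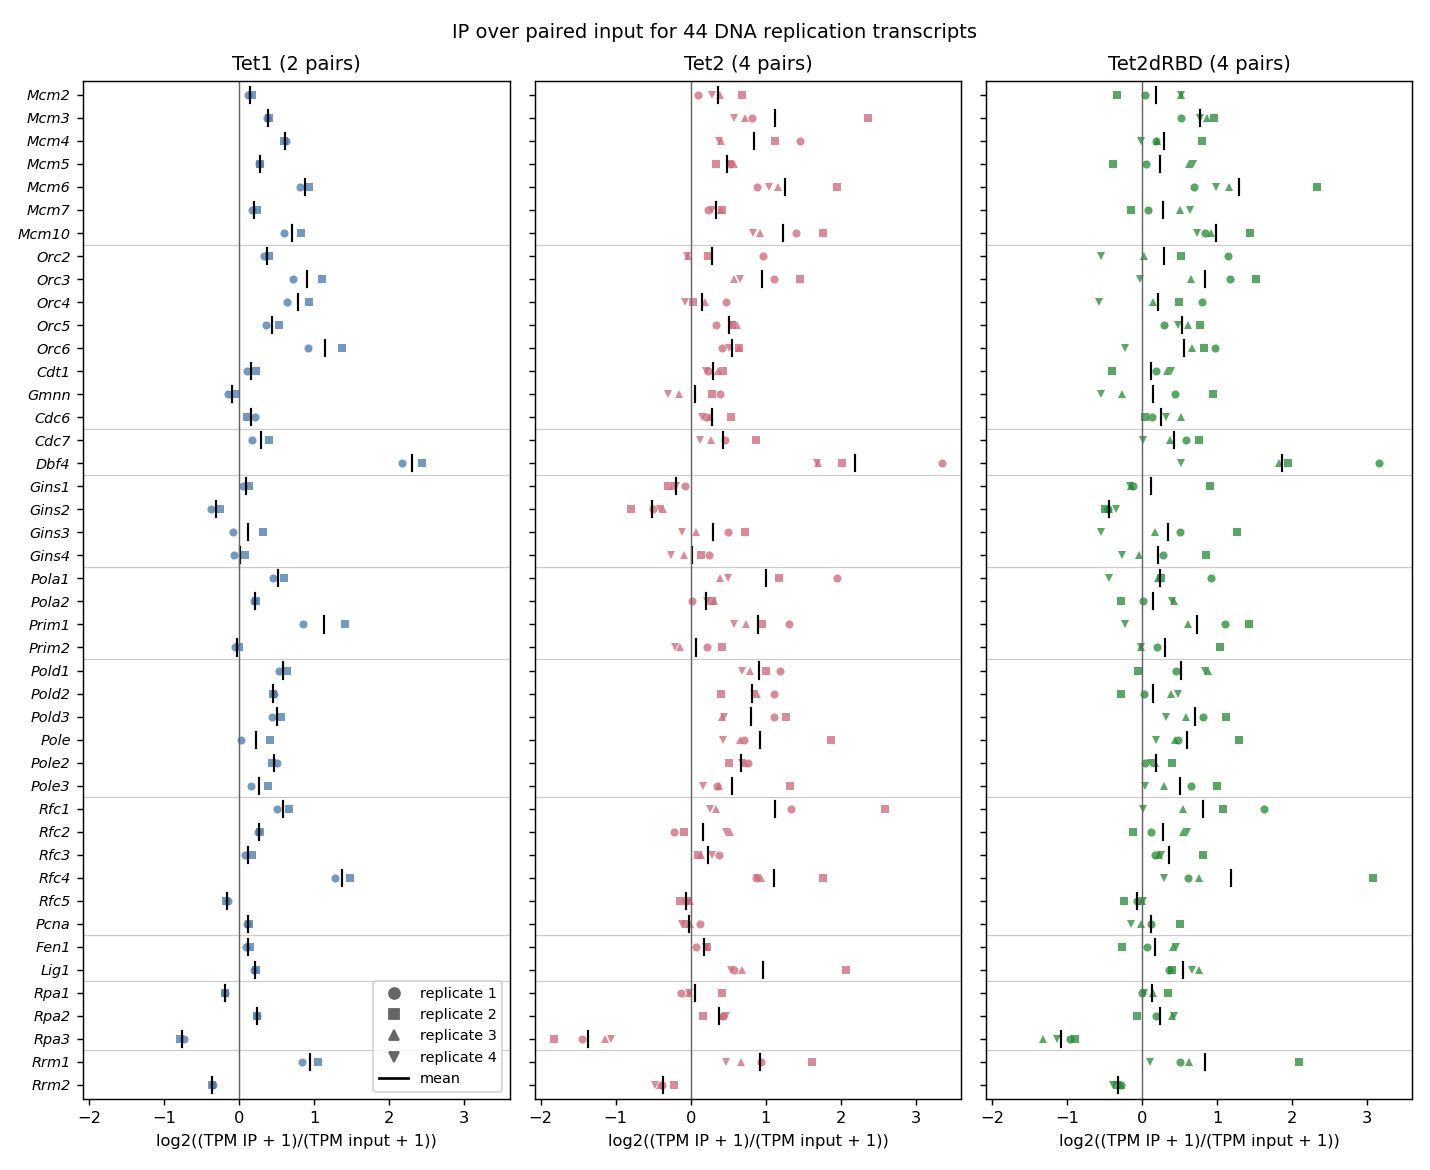
log2((TPM IP + 1)/(TPM input + 1)) of each member (rows, grouped by role with lines between roles) in each pair of IP and input, for Tet1, Tet2 and Tet2dRBD. Symbols are replicates and black bars are means; by the mean, Dbf4 lies farthest right and Rpa3 farthest left in all 3 panels.

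On the TPM scale most members lay above their input. The median log2((TPM IP + 1)/(TPM input + 1)) over the 44 members was 0.29 ± 0.09 in Tet1 (SD over 2 pairs), 0.41 ± 0.10 in Tet2 (4 pairs) and 0.36 ± 0.22 in Tet2dRBD (4 pairs). Over the 11784 genes with a mean input of at least 1 TPM it was 0.08 ± 0.05, 0.23 ± 0.11 and 0.18 ± 0.11, so on this scale the middle of all genes was itself above input. The members' median exceeded that of all expressed genes in 2 of 2 Tet1 pairs, 4 of 4 Tet2 pairs and 3 of 4 Tet2dRBD pairs. The excess was 0.21 ± 0.04, 0.18 ± 0.03 and 0.18 ± 0.31, and in Tet2dRBD it ran from -0.07 in replicate 4 to 0.63 in replicate 2. The summed TPM of the members was higher in IP than in input in all 10 pairs, by 1.13 to 1.71 times.

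The study called a transcript bound where its IP TPM exceeded the input, and here this was asked of every pair. By that reading 35 of 44 members were above input in Tet1 (79.5%, against 50.9% of all genes tested), 30 in Tet2 (68.2%, against 46.5%) and 17 in Tet2dRBD (38.6%, against 31.8%). This rule carries no test and is easier to meet with 2 pairs than with 4. All 30 members that met it in Tet2 met it in Tet1, which is 30 of the 35 Tet1 members, and 16 met it in all 3 lines: Mcm3, Mcm6, Mcm10, Orc5, Cdc6, Cdc7, Dbf4, Pold3, Pole, Pole2, Pole3, Rfc1, Rfc3, Rfc4, Lig1 and Rrm1. The 8 that met it in no line were Gmnn, Gins2, Gins3, Gins4, Prim2, Rfc5, Rpa3 and Rrm2. The counts of 16 and 8 are given without the same counts over all genes. With Gins1 above input in Tet1 alone, no GINS subunit met the rule in Tet2 or Tet2dRBD.

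The members missing in Tet2dRBD missed in 2 of the 4 pairs. Of the 14 members that met the rule in Tet2 and not in Tet2dRBD, 9 fell at or below input in replicate 2 alone and 5 in replicate 4 alone, and none did so in replicates 1 or 3. All expressed genes were also above input less often in those 2 pairs, 51.1% in replicate 2 and 65.7% in replicate 4. In replicates 1 and 3 the shares were 75.6% and 72.3%. Without replicate 2 the Tet2dRBD count was 27 of 44, which is given without the same count over all genes. The 14 were Mcm2, Mcm4, Mcm5, Mcm7, Orc3, Orc6, Cdt1, Pola1, Pola2, Prim1, Pold1, Pold2, Fen1 and Rpa2, and the reverse case, above input in Tet2dRBD and not in Tet2, was Rpa1.

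The replicate test was made on counts with edgeR, which scales each library so that the middle of all genes has no change, with 1 block per pair. On that scale the median fitted log2(IP/input) of the members was 0.12 in Tet1, 0.10 in Tet2 and 0.01 in Tet2dRBD, against -0.04, 0.00 and -0.01 over all genes tested. In Tet1, 2 members were called higher in IP (4.55%, against 2.72% of all genes) and 2 lower (4.55%, against 3.18%). In Tet2, 11 were higher (25%, against 14.6%) and 4 lower (9.09%, against 18.5%). In Tet2dRBD, 3 were higher (6.82%, against 7.4%) and 4 lower (9.09%, against 12.1%). The shares in Tet1 and Tet2dRBD lay close to those of all genes, and no test was made of the list against other genes. In all, 16 members were called in at least 1 line and 28 in none, and Dbf4, Rpa3 and Rrm2 were called in the same direction in all 3. The same counts over all genes are not given. Without the block per pair, Mcm10 and Rpa3 in Tet2 were the only calls among the members.

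**Figure D2:**
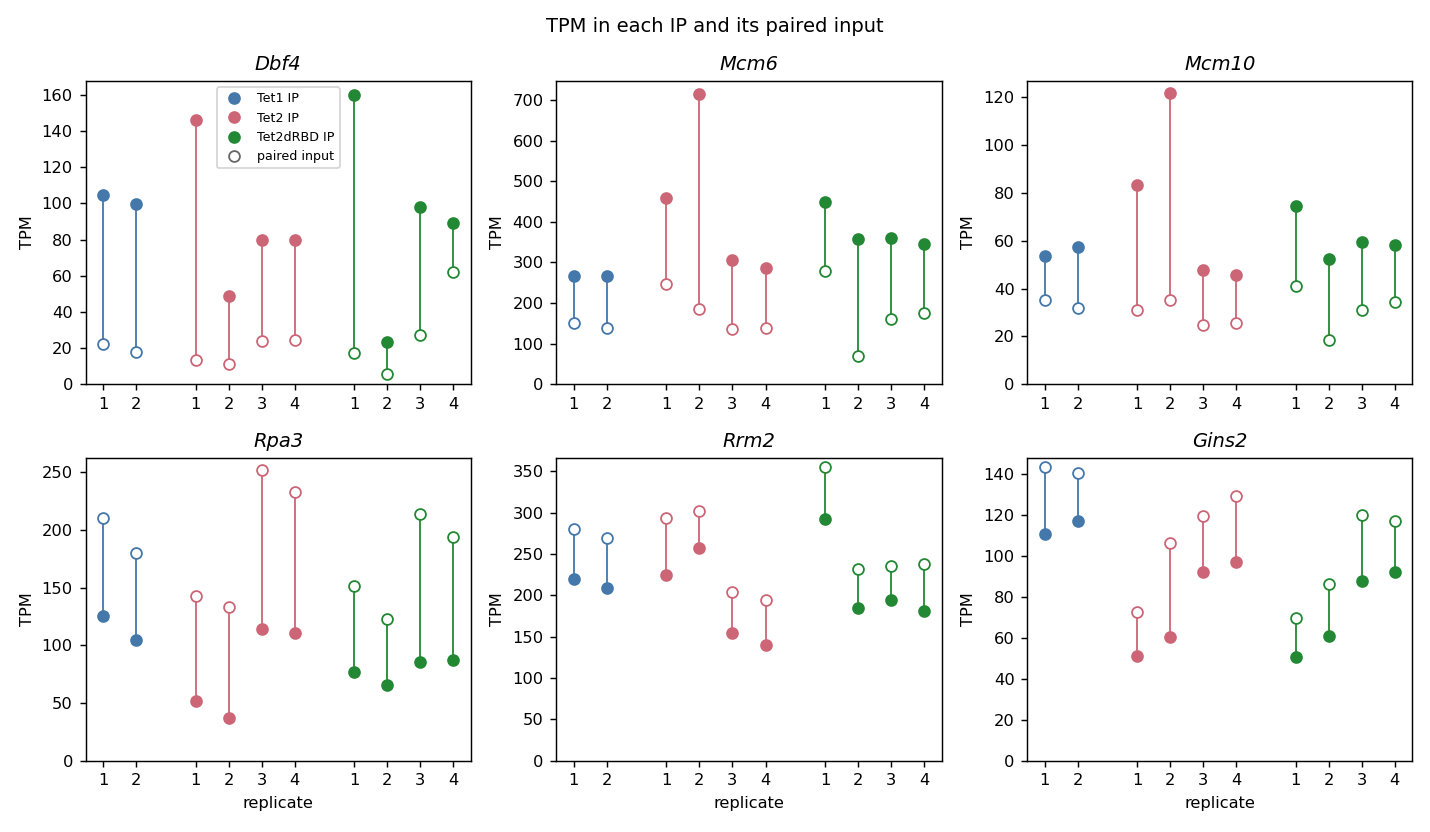
TPM of Dbf4, Mcm6, Mcm10, Rpa3, Rrm2 and Gins2 in each IP (filled) and its paired input (open), joined by a line, by replicate and line (blue Tet1, red Tet2, green Tet2dRBD). Dbf4, Mcm6 and Mcm10 lie above input and Rpa3, Rrm2 and Gins2 below it in all 10 pairs, and the Dbf4 input of Tet2dRBD replicate 4 (62.2 TPM) stands above the other 9 inputs.

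Dbf4, the activating subunit of the Cdc7 kinase, was the member with the highest IP over input. In Tet1 it was at 105 and 99.6 TPM in IP and at 22.5 and 17.6 TPM in input. In Tet2 the IP values were 146, 48.8, 79.7 and 80.0 TPM and the input values 13.5, 11.3, 24.0 and 24.3 TPM. In Tet2dRBD they were 160, 23.6, 98.3 and 89.4 TPM in IP and 17.1, 5.37, 27.2 and 62.2 TPM in input. IP and input did not overlap in Tet1 or Tet2 and did in Tet2dRBD, where the IP of replicate 2 lay below 2 of the 4 inputs. The fitted log2 ratio was 2.21 ± 0.52 (SE) in Tet1 (edgeR adjusted p = 0.0366), 1.92 ± 0.37 in Tet2 (edgeR adjusted p = 0.00347) and 1.66 ± 0.37 in Tet2dRBD (edgeR adjusted p = 0.0136). The Tet1 call was lost without Tet2 replicate 3, Tet2 replicate 4 or Tet2dRBD replicate 3 (edgeR adjusted p = 0.0516, 0.0554 and 0.0551). Without either Tet1 pair the ratio was 2.29 or 2.13, but 0 of 13650 and 0 of 13657 genes were then called in Tet1, the single pair being taken to vary like those of the other lines, so no Tet1 call could be kept there. The Tet2dRBD call was lost without Tet2dRBD replicate 3 (1.71, edgeR adjusted p = 0.0525) and with the Tet2dRBD libraries alone (edgeR adjusted p = 0.065), and within the set of replicates 3 and 4 and Tet1 the ratio was 0.90 (edgeR adjusted p = 0.00429). The kinase Cdc7 itself was 0.16, 0.15 and 0.19 on the fitted log2 scale and was not called.

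The MCM genes are Mcm2 to Mcm7, which encode the ring of the replicative helicase, and Mcm10, which is not part of that ring. Of these, 4 of 7 rose in the Tet2 IP (Mcm3, Mcm4, Mcm6 and Mcm10), 2 in Tet2dRBD (Mcm6 and Mcm10) and 0 in Tet1. Mcm6, a subunit of the helicase ring, was at 459, 714, 306 and 285 TPM in the Tet2 IP against 248, 184, 136 and 138 TPM in input. In Tet2dRBD it was at 449, 357, 360 and 346 TPM against 279, 70.4, 161 and 174 TPM. The groups did not overlap in either line, and the fitted log2 ratios were 0.95 ± 0.26 (edgeR adjusted p = 0.0187) and 1.00 ± 0.27 (edgeR adjusted p = 0.0258). The Tet2 call was lost without Tet2 replicate 2 (0.78, edgeR adjusted p = 0.0636) and the Tet2dRBD call without Tet2dRBD replicate 3 (1.07, edgeR adjusted p = 0.0718). With replicates 3 and 4 summed, since they may share a preparation, both calls were lost (0.95 and 1.09, edgeR adjusted p = 0.0579 and 0.0711). Mcm10, which stabilises the active helicase and polymerase alpha at the fork, was at 83.1, 122, 47.8 and 45.8 TPM in the Tet2 IP against 30.9, 35.2, 24.6 and 25.4 TPM in input, again without overlap. Its fitted log2 ratio was 0.94 ± 0.16 in Tet2 (edgeR adjusted p = 0.00207) and 0.73 ± 0.16 in Tet2dRBD (edgeR adjusted p = 0.013), and in Tet1, where it was not called, 0.58 ± 0.23. The other ring subunits were lower: Mcm2, Mcm5 and Mcm7 lay between 0.02 and 0.17 in Tet2 and between -0.09 and 0.00 in Tet2dRBD on the fitted log2 scale, without a call.

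Mcm3 and Lig1 rose in Tet2 with 1 pair far from the others. Mcm3, another ring subunit, was at 430, 1590, 209 and 190 TPM in the Tet2 IP against 244, 309, 126 and 127 TPM in input. Lig1, the ligase that seals Okazaki fragments, was at 143, 574, 87.3 and 81.5 TPM against 95.6, 136, 54.2 and 55.9 TPM. In both the IP of replicate 2 was more than any other library, and the other IPs overlapped the inputs. The fitted log2 ratios were 0.80 ± 0.23 for Mcm3 (edgeR adjusted p = 0.0214) and 0.65 ± 0.20 for Lig1 (edgeR adjusted p = 0.0284). Without Tet2 replicate 2 they were 0.45 (edgeR adjusted p = 0.0264) and 0.35 (edgeR adjusted p = 0.0521), and Lig1 was also lost without Tet2 replicate 3 (0.72, edgeR adjusted p = 0.0509) and with replicates 3 and 4 summed (0.72, edgeR adjusted p = 0.06). Fen1, the flap nuclease that acts before Lig1, was at -0.14 on the fitted log2 scale in Tet2 and was not called.

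Polymerase genes were called in the Tet2 IP and in no other: 4 of 6 genes of polymerases delta and epsilon (Pold1, Pold2, Pold3 and Pole2) and 1 of 4 genes of polymerase alpha-primase (Pola1) were called higher in Tet2, and 0 of these 10 in Tet1 or Tet2dRBD. A call in 1 line is no test of a difference between lines, which is given further on. Pold1, the catalytic subunit of polymerase delta, was at 161, 169, 47.3 and 44.7 TPM in the Tet2 IP against 70.2, 84.0, 27.0 and 27.6 TPM in the paired inputs, above input in 4 of 4 pairs. Its fitted log2 ratio of 0.61 ± 0.13 had the lowest adjusted p of the group (edgeR adjusted p = 0.00563). The accessory subunits Pold2, Pold3 and Pole2 followed at 0.50, 0.52 and 0.38 on the fitted log2 scale, and the catalytic subunit Pole, at 0.66 ± 0.24, did not pass the test (edgeR adjusted p = 0.0567). Pola1 was at 22.9, 15.7, 10.7 and 10.2 TPM in the Tet2 IP against 5.18, 6.42, 7.96 and 6.97 TPM in input, with a fitted log2 ratio of 0.78 ± 0.26 (edgeR adjusted p = 0.0369). This call was lost without Tet2 replicate 1 (0.51), Tet2 replicate 2 (0.78) and Tet1 replicate 2 (0.78). The call of Pold2 was lost without Tet2 replicates 1, 3 or 4 (0.44 to 0.46) and that of Pold3 without Tet1 replicate 2 or Tet2 replicates 1 or 2 (0.42 to 0.52), while Pold1 stayed past the threshold in all 10 such fits. Those of Mcm4 and Pole2 (main edgeR adjusted p = 0.0494 and 0.0425) were each lost in 6 of the 10, among them those without either Tet1 pair. With replicates 3 and 4 summed, the calls of Pold2, Pole2 and Mcm4 were lost (0.43, 0.31 and 0.63, edgeR adjusted p = 0.128, 0.182 and 0.0604).

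Neither primase subunit was called. Prim1, the catalytic subunit, was positive in all 3 lines (fitted log2 1.03, 0.61 and 0.50) and Prim2, the regulatory subunit, was at -0.18, -0.25 and 0.03. The test between the genes was not made.

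Among origin recognition and licensing genes 1 of 8 was called, in 1 line. Orc6, the smallest subunit of the origin recognition complex, was at 94.4 and 93.1 TPM in the Tet1 IP and at 49.4 and 35.4 TPM in input, a fitted log2 ratio of 1.04 ± 0.26 (edgeR adjusted p = 0.0434). It was at 0.28 in Tet2 and 0.33 in Tet2dRBD, without a call, and the Tet1 call was lost in the same fits without 1 pair as that of Dbf4 (ratios of 0.87 to 1.21). Orc3 was at 0.87, 0.77 and 0.72 in the 3 lines and was not called. The licensing factors Cdt1 and Cdc6 lay between -0.15 and 0.02 on the fitted log2 scale in all 3 lines, and Gmnn, the inhibitor of Cdt1, between -0.26 and -0.14.

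In the clamp and clamp loader, Rfc1 and Rfc4 had high ratios in Tet2 with a wide spread and were not called. Rfc1, the large subunit, was at 50.05, 102, 21.03 and 20.3 TPM in the Tet2 IP against 19.2, 16.2, 16.5 and 16.8 TPM in input, a fitted log2 ratio of 0.84 ± 0.34 (edgeR adjusted p = 0.0799). Rfc4 was at 85.8, 39.8, 72.8 and 66.9 TPM against 46.4, 11.01, 37.4 and 35.8 TPM, a ratio of 0.83 ± 0.40 (edgeR adjusted p = 0.132). Every IP was above its own input for both genes. Rfc5 was called lower in Tet2 and Tet2dRBD at -0.38 ± 0.10 and -0.35 ± 0.10 (edgeR adjusted p = 0.0129 and 0.029), but on the TPM scale its mean log2 ratio was -0.06 and -0.07. The Tet2 call was lost without Tet2 replicate 1 or 2 (-0.31 and -0.29) and the Tet2dRBD call in 8 of 10 fits that left out 1 pair and with replicates 3 and 4 summed (-0.37, edgeR adjusted p = 0.108). Pcna, the ring itself, was at -0.04, -0.33 and -0.16 in Tet1, Tet2 and Tet2dRBD on the fitted log2 scale and was not called.

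Rpa3, the smallest subunit of the single-strand binding protein RPA, had the lowest ratio in every line. In Tet1 it was at 125 and 104 TPM in IP and at 210 and 180 TPM in input. In Tet2 it was at 51.9, 37.2, 114 and 111 TPM in IP against 143, 134, 252 and 233 TPM in input, and in Tet2dRBD at 77.1, 65.2, 85.3 and 87.5 TPM against 151, 123, 214 and 194 TPM. IP and input did not overlap in any line. The fitted log2 ratio was -0.91 ± 0.23 in Tet1 (edgeR adjusted p = 0.0467), -1.69 ± 0.17 in Tet2 (edgeR adjusted p = 0.000154) and -1.37 ± 0.17 in Tet2dRBD (edgeR adjusted p = 0.000788). Its partners Rpa1 and Rpa2 lay between -0.34 and 0.09 and were not called.

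Rrm2, the small subunit of ribonucleotide reductase, which makes deoxyribonucleotides, fell in all 3 lines, by 0.51 ± 0.13, 0.69 ± 0.09 and 0.60 ± 0.09 on the log2 scale (edgeR adjusted p = 0.0432, 0.000456 and 0.002). Its IP values in Tet2 were 225, 258, 155 and 140 TPM and its input values 294, 302, 205 and 194 TPM, below input in 4 of 4 pairs although the groups overlapped. The large subunit Rrm1 was positive in all 3 lines (0.82, 0.64 and 0.56 on the fitted log2 scale) and was not called. The Tet1 calls of Rrm2 and Rpa3 were lost in the fits without 1 pair that lost Dbf4 and without Tet2 replicate 1. With replicates 3 and 4 summed both were also lost (edgeR adjusted p = 0.0966 and 0.0645), at ratios of -0.52 and -0.92. The Tet1 call of Rrm2 was further lost with no filter on low counts (edgeR adjusted p = 0.0772) and with limma on log2(TPM + 1) (adjusted p = 0.0862).

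Of the GINS subunits 1 of 4 was called. Gins2 was at 50.9, 60.6, 92.2 and 96.8 TPM in the Tet2 IP against 72.5, 106, 119 and 129 TPM in input, and fell by 0.84 ± 0.12 in Tet2 and by 0.72 ± 0.12 in Tet2dRBD on the log2 scale (edgeR adjusted p = 0.000731 and 0.00337). Gins1 in Tet2 (-0.52 ± 0.19, edgeR adjusted p = 0.0557) did not pass. In the GENCODE annotation, exons of Gins2 share 2758 bases with Gse1 on the opposite strand and those of Rfc5 share 499 bases with Wsb2. The sources used here do not say that counting used strand, so reads of these pairs may not be told apart. RSEM counted Gins2 over a mean effective length of 970 bases, against 3900 bases in its GENCODE transcript. Much of the overlap with Gse1 may therefore lie outside the model that was counted.

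The direct test of the RNA-binding domain called 0 of 44 members, against 3 of 13710 genes (0.0219%). DESeq2 called 0 members and 28 genes. Below an unadjusted p of 0.05 in edgeR were 416 of 13710 genes, among them 3 of the 44 members. These were Pola1, Pold2 and Pole2, with a Tet2 minus Tet2dRBD difference in log2 ratio of 0.79 ± 0.36, 0.63 ± 0.21 and 0.46 ± 0.18, and Mcm4 followed Pola1 and Pold2 in size at 0.52 ± 0.26 (edgeR adjusted p = 1 for each). The lowest differences were those of Gins1 at -0.35 ± 0.27, Rpa3 at -0.33 ± 0.23 and Prim2 at -0.28 ± 0.27. For Dbf4 the difference was 0.26 ± 0.51 and for Mcm6 it was -0.06 ± 0.37, so differences of the size of these SEs were not detectable. The median difference over the members was 0.01, against -0.01 over all genes. Within the library set of replicates 3 and 4 and Tet1, whose replicates 3 and 4 may be 1 preparation, 2 members were called, against 91 of 13379 genes (0.68%), Pold2 at 0.51 ± 0.09 and Pole2 at 0.65 ± 0.11 (edgeR adjusted p = 0.0432 and 0.0305).

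**Figure D3:**
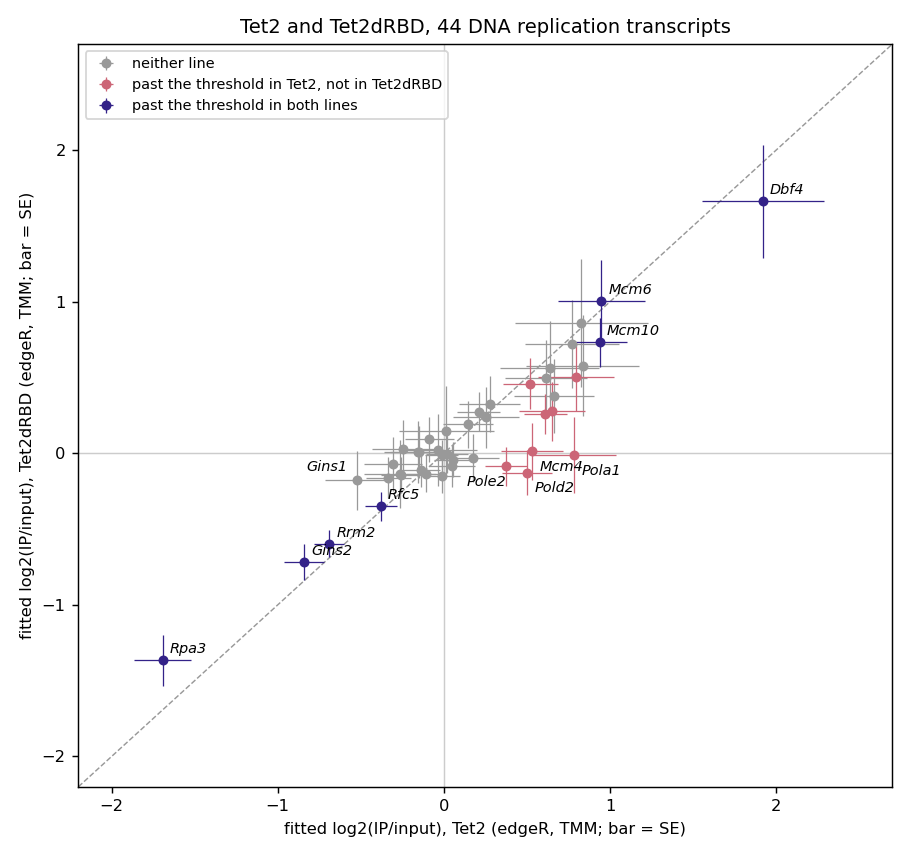
Fitted log2(IP/input) of the 44 members in Tet2 (x) and Tet2dRBD (y), with SE bars; the dashed line marks equal ratios. The 7 members called in Tet2dRBD (blue) were all called in Tet2 and lie near the line, and Pola1, Pold2, Pole2 and Mcm4 lie below it.

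Over the 44 members, the fitted log2 ratios in Tet2 and Tet2dRBD, each from its own IPs and inputs, had a Pearson r of 0.92 and a Spearman rho of 0.84, as a description. Over all 13710 genes the values were 0.86 and 0.85. All 7 members called in Tet2dRBD were called in the same direction in Tet2, which is 7 of the 15 Tet2 calls. The overlap of calls over all genes is not given.

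Tet1 and Tet2 were compared in the same way, and 0 of 44 members were called, against 0 of 13710 genes (0%). At an unadjusted p of 0.05 there were 3 members and 517 genes, and DESeq2 called 0 members. The 3 were Orc4, Orc6 and Rpa3, with a Tet1 minus Tet2 difference in log2 ratio of 0.88 ± 0.35, 0.77 ± 0.32 and 0.78 ± 0.29 (edgeR adjusted p = 0.94 for each). The 2 Tet1 pairs limit this test. Within the same library set 2 members were called, against 314 of 13379 genes (2.35%), Orc4 at 0.83 ± 0.17 and Lig1 at -0.38 ± 0.08 (edgeR adjusted p = 0.045 for both). Over the members r between the Tet1 and Tet2 ratios was 0.84 and rho was 0.84, against 0.76 and 0.76 over all genes.

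**Figure D4:**
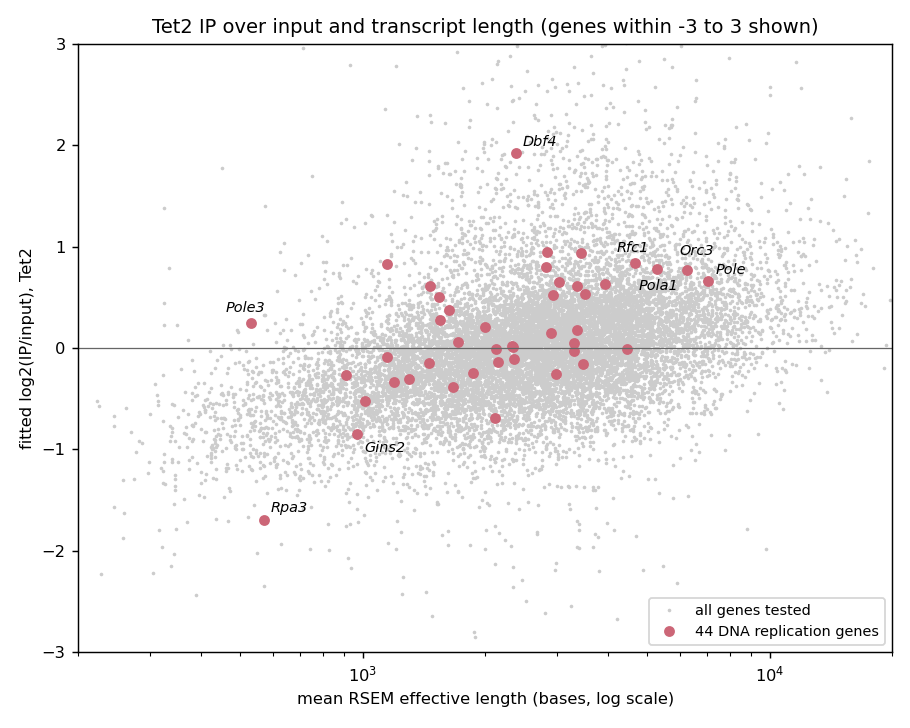
Fitted log2(IP/input) in Tet2 against the mean RSEM effective length (log scale) for the 44 members (red) and all genes tested (grey, those within -3 to 3). Short members such as Rpa3 (570 bases) and Gins2 (970 bases) lie below 0 and long ones such as Pola1, Orc3 and Pole above it, within a rise shared by the grey points.

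Transcript length moved with the ratio among the members as it did among all genes. In Tet2, Spearman's rho between the fitted ratio and the effective length (the length over which RSEM counts fragments) was 0.51 over the members and 0.44 over all genes tested. The 11 shortest members (531 to 1465 bases) had a median ratio of -0.26 with 3 above 0, and the 11 longest (3354 to 7061 bases) a median of 0.64 with 9 above 0. In Tet1 and Tet2dRBD the medians were -0.04 and -0.07 for the short members and 0.45 and 0.26 for the long ones. Rpa3 is among the shortest members. Pole3, the shortest at 531 bases, was at 0.25 in Tet2, and Dbf4, with the highest ratio, has 2376 bases. For some members the effective length was far from the length of the GENCODE transcript. It was 531 against 1805 bases for Pole3 and 6244 against 2300 bases for Orc3. Input level moved the other way, with a rho of -0.42 over the members and -0.28 over all genes in Tet2, and length and input level were themselves related over the members (rho -0.40). The longest C and T run had a rho of 0.39 with the Tet2 ratio over the members and 0.22 over all genes, and of 0.61 with coding length over the members. These points share libraries and are given without a p. The part of length, input level or runs in the calls was not tested.

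**Figure D5:**
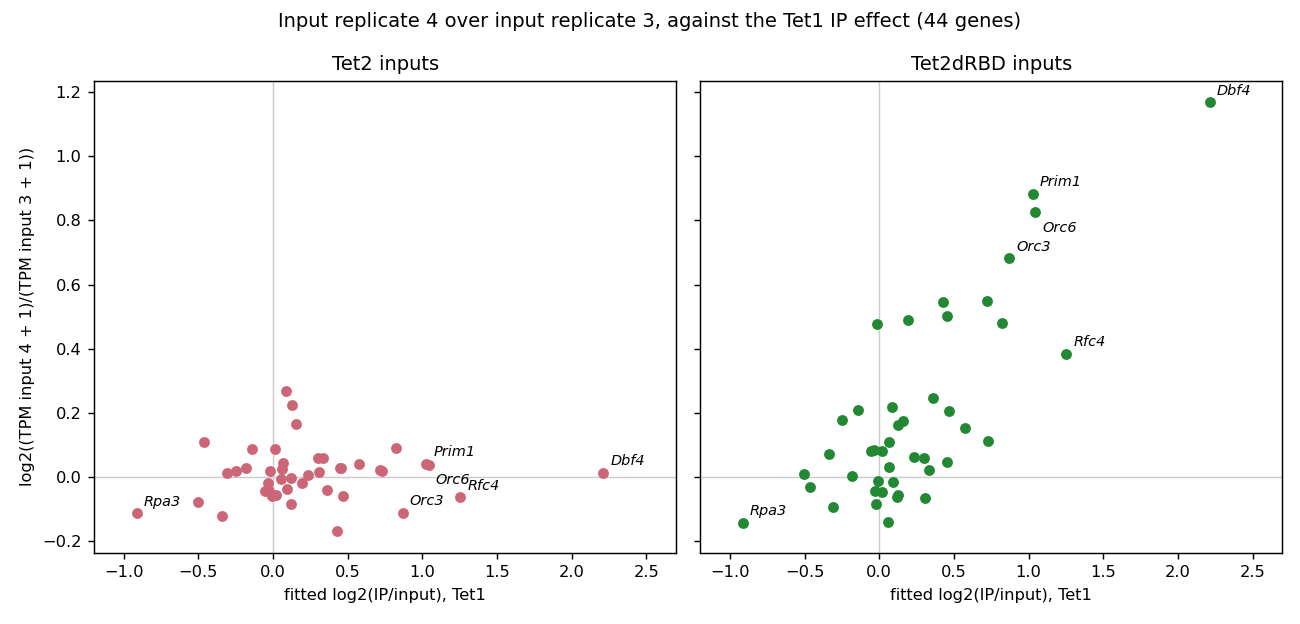
log2((TPM + 1) of input replicate 4 over replicate 3) of the 44 members against their fitted log2(IP/input) in Tet1, for the inputs of Tet2 (left) and Tet2dRBD (right). The Tet2 inputs stay within -0.17 to 0.27, while in the Tet2dRBD inputs Dbf4, Prim1, Orc6 and Orc3 rise to 0.68 or more.

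The Tet2dRBD input of replicate 4 stood apart from that of replicate 3 in some members, more so in those with a high ratio in Tet1. Between the Tet2 inputs 3 and 4, 0 of 44 members differed by more than 0.5 in log2((TPM + 1)), and between the Tet2dRBD inputs 7 did, all higher in replicate 4. They were Dbf4 (1.17), Prim1 (0.88), Orc6 (0.83), Orc3 (0.68), Orc4 (0.55), Pola1 (0.54) and Rfc1 (0.50). This count is given without the same count over all genes. Of the members called higher in the Tet2 IP, all but Dbf4 and Pola1 lay between -0.06 (Pold2) and 0.25 (Pold3). Over the members this difference had a Pearson r of 0.78 and a rho of 0.62 with the fitted ratio in Tet1, which shares no library with it, and over all genes 0.53 and 0.39. For the Tet2 inputs the values over the members were 0.06 and 0.15. Input 4 is the denominator of IP over input in Tet2dRBD replicate 4, so lower ratios of these 7 genes there are no separate observation. On the log2(TPM + 1) scale they ran from -0.58 for Orc4 to 0.52 for Dbf4. In replicate 3 these 2 genes were at 0.14 and 1.82. Without Tet2dRBD replicate 4, 7 members were called higher in Tet2dRBD in place of 3. Over all genes the count also rose, from 1014 of 13710 to 1226 of 13682.

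The remaining genes of the pathway were read from a second list of 39 genes, among them firing factors, fork protection proteins, chromatin assembly factors and nucleotide synthesis enzymes. In Tet1 3 were called higher (7.69%, against 2.72% of all genes) and 2 lower (5.13%, against 3.18%). In Tet2 there were 9 (23.1%, against 14.6%) and 7 (17.9%, against 18.5%), and in Tet2dRBD 4 and 4 (10.3% each, against 7.4% and 12.1%), and neither difference between lines called any. Mcm8, an MCM relative that acts in recombination repair, was the highest, with fitted log2 ratios of 2.04, 1.70 and 1.39 in the 3 lines. Wdhd1, which links the helicase to polymerase alpha, was at 1.02, 1.38 and 1.11, and Rnaseh2b, a subunit of the enzyme that removes ribonucleotides from DNA, at 1.47, 0.94 and 1.00. These were called in all 3 lines, as were Dut, which removes dUTP (-0.65, -1.10 and -0.86), and the histone chaperone Asf1b (-0.68, -0.82 and -0.69). Topbp1, a firing factor, was called in Tet2 (1.26) and Tet2dRBD (1.18).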

How the data were processed

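RIP-Seq of tagged Tet1, Tet2 and Tet2dRBD was read from 20 libraries. Per the labels, the authors' processing notes name FastQC, Trimmomatic, Bowtie2 and RSEM with mm9; versions are not given in the sources used here. The authors deposited unnormalized gene-level estimated counts from RSEM, FPKM values (not used) and TPM + 1, from which 1 was subtracted. Library totals were 21078995 to 37576638 expected counts (median 25517290). Counts were rounded, genes with at least 1 CPM in at least 2 libraries were kept (13710), and edgeR 4.0.16 (quasi-likelihood, TMM, R 4.3.3) was fitted to all libraries with 1 block per pair and 1 IP effect per line (7 residual degrees of freedom). Benjamini-Hochberg adjustment ran over all genes, with a threshold of 0.05. The 2 differences between lines come from the same fit. The script was tested on simulated data. Same-numbered IP and input libraries deviated together from their group means (correlations of 0.58 to 0.87 in Tet2 and Tet2dRBD; 0.27 for the 2 Tet1 pairs), while those with different numbers correlated at -0.73 to 0.80 in Tet2 and -0.76 to 0.73 in Tet2dRBD, so number pairing is not unique to each pair. Log2 TPM ratios use a pseudocount of 1. Coding sequences and coordinates are from the GENCODE annotation of mm9.

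The members and lists were chosen with earlier results of these data known. All members called in a line were described, with the 5 highest and 5 lowest in Tet2, where over 8 passed, the 3 highest and 3 lowest in input and the 3 largest differences each way between Tet2 and Tet2dRBD. Ticrr and Supt16 were matched through older symbols. Library sets rest on numbers in the names of the deposited tables; no label gives them. Alternatives were DESeq2 1.42.0, other size factors, no filter, no block, fewer lines, replicates 3 and 4 summed, 1 library set, limma 3.58.1 on log2 TPM, and leaving out each pair.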

Additional observations from a re-analysis of the deposited data

Results flagged for a closer look

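In 2 of the 32 groups of 4 pairs examined (the called members in Tet2 and in Tet2dRBD), 1 pair stood far from the other 3 by Dixon's criterion, which flags about 1 group in 20 by chance. Both were Tet2 replicate 2: Mcm3 had a log2((TPM IP + 1)/(TPM input + 1)) of 2.36 there, against 0.58 to 0.81 in the other pairs, and Lig1 had 2.08, against 0.54 to 0.68. In the same pair the summed TPM of the 44 members was 1.71 times that of its input, the highest of the 10 pairs. Without this pair the fitted log2 ratio of Mcm3 was 0.45 and that of Lig1 0.35. The cause was not tested.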

How the results depend on the processing

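Counts of members called higher and lower in IP were compared with 2 and 2 in Tet1, 11 and 4 in Tet2, and 3 and 4 in Tet2dRBD. With no replicate block (pairing ignored) they were 0 and 0, 1 and 1, and 0 and 0. All genes were then 0 and 0, 121 and 254, and 5 and 41 of 13710. With only the compared line's libraries, Tet1 had 21 and 6 (all genes 3602 and 3383 of 12691) and Tet2dRBD 0 higher (all genes 147 of 13260). In 1 library set they were 18 and 8, 20 and 11, and 13 and 15, while all genes rose to 2623 and 3637, 3306 and 3364, and 3242 and 3326 of 13379, with 2 members higher in Tet2 minus Tet2dRBD and 1 higher and 1 lower in Tet1 minus Tet2. With replicates 3 and 4 summed, Tet1 had 0 lower and Tet2 6 higher (all genes 131 and 1263 of 13610). With no filter, Tet1 had 1 lower (all genes 310 of 19601). With DESeq2, Tet2dRBD had 5 higher (all genes 1761 of 13710). With limma on log2(TPM + 1), Tet1 had 1 lower, Tet2 24 higher and Tet2dRBD 13 higher. All genes were then 144, 4801 and 3224 of 13710. With TPM + 0.1 the members were 1, 24 and 14 and all genes 143, 4815 and 3370. Leaving out 1 pair gave 0 to 5 higher and 0 to 3 lower in Tet1, 6 to 16 and 3 to 7 in Tet2, and 1 to 7 and 3 to 5 in Tet2dRBD. The extremes came without Tet2dRBD replicate 2 (5, 16 and 7 lower in Tet2), Tet2 replicate 2 (3 lower in Tet1) and Tet2dRBD replicates 3 and 4 (1 and 7). Without Tet2dRBD replicate 2, 729 of 13660 genes in all were higher in Tet1, and 2733 higher and 2643 lower in Tet2. Without Tet2 replicate 2, 748 of 13692 genes were lower in Tet1. In the main fit these counts over all genes were 373, 2007, 2533 and 436 of 13710. Without Tet2dRBD replicate 3 or 4, 207 of 13666 or 1226 of 13682 genes in all were called higher in Tet2dRBD. Among the members, no difference between lines was called when any pair was left out, and none between inputs in any alternative run. Over all genes, up to 14 of 13692 were called in Tet2 minus Tet2dRBD, without Tet2 replicate 2. By the rule of TPM above input, 10, 5 and 2 members were at least 1.5 times input. In Tet2dRBD the count was 40 with no replicate block, 9 after centring and 17 to 27 without 1 pair. These counts by the rule are given without the same counts over all genes. Centring put the Tet2 median at 0.179. The causes were not tested. Mcm10 and Rpa3 in Tet2 stayed past the threshold in all 19 alternatives, and no value reversed.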
